A study of Mus musculus with 20 samples.

Results

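The distal end of mouse chromosome 4 holds a cluster of zinc-finger genes that were measured by RNA-seq in ATDC5 clones. ATDC5 is a mouse line used as a culture model of cartilage formation. Members were the genes of a window that runs from the start of Tnfrsf1b (145213463) to that of Zfp534 (147673502; GRCm38, GENCODE annotation) and that reached 10 counts in at least 1 library. Of 27911 genes in the deposited table, 32 met this rule: 17 zinc-finger members (those named Zfp, and Rex2) and 15 neighbours. The window holds 90 annotated genes, 77 of them in the table, and 45 of these stayed under the count minimum. The members were picked because many had already been seen to be low in the mutant clones, so the differences between genotypes are given as a description.

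The Kmt2d-/- cells carried deletions of the catalytic SET domain on both alleles and came as 2 clones, named 10-7 (clone 1) and 96-9 (clone 2) in the labels. The Kmt2d+/+ cells came as 3 clones, named 10-5, 10-7 and 10-8 (clones 1, 2 and 3). Each clone gave a library after 7 days in a medium with insulin, transferrin, selenium, ascorbic acid and beta-glycerophosphate (day 7), and a library before differentiation (day 0), 10 libraries in all. Each line is 1 clone, so a difference between genotypes cannot be told apart from a difference that the clones acquired when they were made.

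KRAB zinc-finger proteins bind DNA through a row of C2H2 fingers and, through their KRAB domain, recruit Trim28, which brings the histone methyltransferase Setdb1 and other repressors. In mice many of them silence transposable elements, and their genes lie in clusters that grew by duplication. KMT2D is a methyltransferase that places methyl groups on lysine 4 of histone H3, mainly at enhancers. For most single members no individual function is well established, and what follows gives their levels, not their targets.

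The copies are so alike that their sequences decide how well reads can be assigned. The first set below shows 84 bases of coding sequence, the fifth finger and its linker in the longest reading frame of the GENCODE transcript, for 6 members chosen to show the closest copies and the 3 sequence groups. Capitals mark bases that differ from Rex2.

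Rex2: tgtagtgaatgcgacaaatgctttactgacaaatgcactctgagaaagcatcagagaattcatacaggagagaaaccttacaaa
Zfp600: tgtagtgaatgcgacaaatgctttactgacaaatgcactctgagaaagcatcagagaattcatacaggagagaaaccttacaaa
Zfp981: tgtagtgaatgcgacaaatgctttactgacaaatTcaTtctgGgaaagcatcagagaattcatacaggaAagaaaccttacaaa
Zfp980: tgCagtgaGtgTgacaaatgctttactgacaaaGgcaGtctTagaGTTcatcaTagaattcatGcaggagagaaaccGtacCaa
Zfp991: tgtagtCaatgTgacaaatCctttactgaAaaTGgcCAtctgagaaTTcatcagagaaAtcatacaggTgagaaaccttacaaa
Zfp988: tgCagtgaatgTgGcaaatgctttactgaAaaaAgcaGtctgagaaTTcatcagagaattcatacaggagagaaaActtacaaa

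Zfp600 had 0 differences from Rex2 in this stretch, Zfp981 had 4, Zfp988 had 9, Zfp991 had 12 and Zfp980 had 13. Zfp992, not printed, had 12. The longest reading frames of the 17 zinc-finger members held 2 to 17 fingers, with a median of 11. All 17 are annotated as protein-coding, and 15 lie on the plus strand. Those of 4 genes counted as neighbours by their names also held 3 or more fingers. They were the protein-coding Gm13212 with 20, and the pseudogenes Znf41-ps with 11, Gm13230 with 6 and Gm13147 with 3.

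The second set shows promoters, from 250 bases before to 50 after the annotated start (RefSeq, GRCm38.p6), of 3 members that were all low in the Kmt2d-/- clones. Capitals mark CG dinucleotides, the sites of DNA methylation.

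Rex2, chr4:147021600-147021899, plus strand: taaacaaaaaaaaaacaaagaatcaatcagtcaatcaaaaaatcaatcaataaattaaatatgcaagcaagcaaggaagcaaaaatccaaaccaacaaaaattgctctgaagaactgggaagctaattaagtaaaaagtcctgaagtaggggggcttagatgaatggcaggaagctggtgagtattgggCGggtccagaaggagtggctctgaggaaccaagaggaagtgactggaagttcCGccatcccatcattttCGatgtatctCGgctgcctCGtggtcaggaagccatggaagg
Zfp979, chr4:147642459-147642758, minus strand: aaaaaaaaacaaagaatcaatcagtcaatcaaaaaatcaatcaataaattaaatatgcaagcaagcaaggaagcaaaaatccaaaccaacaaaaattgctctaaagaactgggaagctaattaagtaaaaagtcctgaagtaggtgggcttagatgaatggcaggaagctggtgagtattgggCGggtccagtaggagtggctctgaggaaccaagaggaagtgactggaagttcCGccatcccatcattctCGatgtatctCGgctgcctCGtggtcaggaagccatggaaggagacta
Zfp980, chr4:145670447-145670746, plus strand: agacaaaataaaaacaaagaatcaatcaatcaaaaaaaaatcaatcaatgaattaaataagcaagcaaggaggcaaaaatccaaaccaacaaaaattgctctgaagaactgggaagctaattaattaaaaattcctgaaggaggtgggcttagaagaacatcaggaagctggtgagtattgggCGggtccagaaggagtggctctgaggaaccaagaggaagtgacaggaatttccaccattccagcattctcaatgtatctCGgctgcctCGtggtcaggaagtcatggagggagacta

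The Rex2 window matched that of Zfp979, near the far end of the cluster and on the opposite strand, over 96.7% of its bases, and that of Zfp980 over 90.3%. Rex2 and Zfp600 matched over 99.7%. A RefSeq promoter was matched for 9 of the 17 zinc-finger members, and over their 36 pairs the identity ran from 77.0% to 99.7% with a median of 86.5%. Zfp991, Zfp992 and Zfp993, whose levels differed least between genotypes, had no matched promoter, so the windows give no contrast with them. These 9 windows held 3 to 6 CG dinucleotides (median 5), against a median of 7 over all 32851 promoters of that length, and had a median GC content of 42.3% against 52.7%. The letters TATAAA and CCGGAA, searched on both strands, were found in 0 of the 9 windows and in 13.6% and 14.9% of all promoters. These are descriptions of sequence and were not tied to a measured level.

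Copies also shared transcript sequence. Only 5.72% of the distinct 31-base words in the transcripts of Rex2 were found in no other gene, and 70.3% of those of Zfp982, with a median of 17.2% over the 17 zinc-finger members. One group was formed by Rex2, Zfp600, Zfp980, Zfp978 and Zfp981. In it 86.9% of the words of Rex2 were also in Zfp600, and 69.8% of those of Zfp980 were in Rex2. Another group was formed by Zfp986, Zfp987, Zfp988, Zfp989 and Zfp534, in which 66.9% of the words of Zfp534 were in Zfp987. The third was formed by Zfp991, Zfp992, Zfp993 and the pseudogene Znf41-ps, in which 86.9% of the words of Zfp993 were in Zfp991. The deposited counts were estimated by dividing such reads between copies, so the level of a single member is less certain than that of its group. The groups are not closed. Genes outside the member list held 81.6% of the words of Zfp987 and 68.9% of those of Zfp534, with a median of 26.9% over the 17. The level of a group, the second above all, is thus uncertain too.

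**Figure D1:**
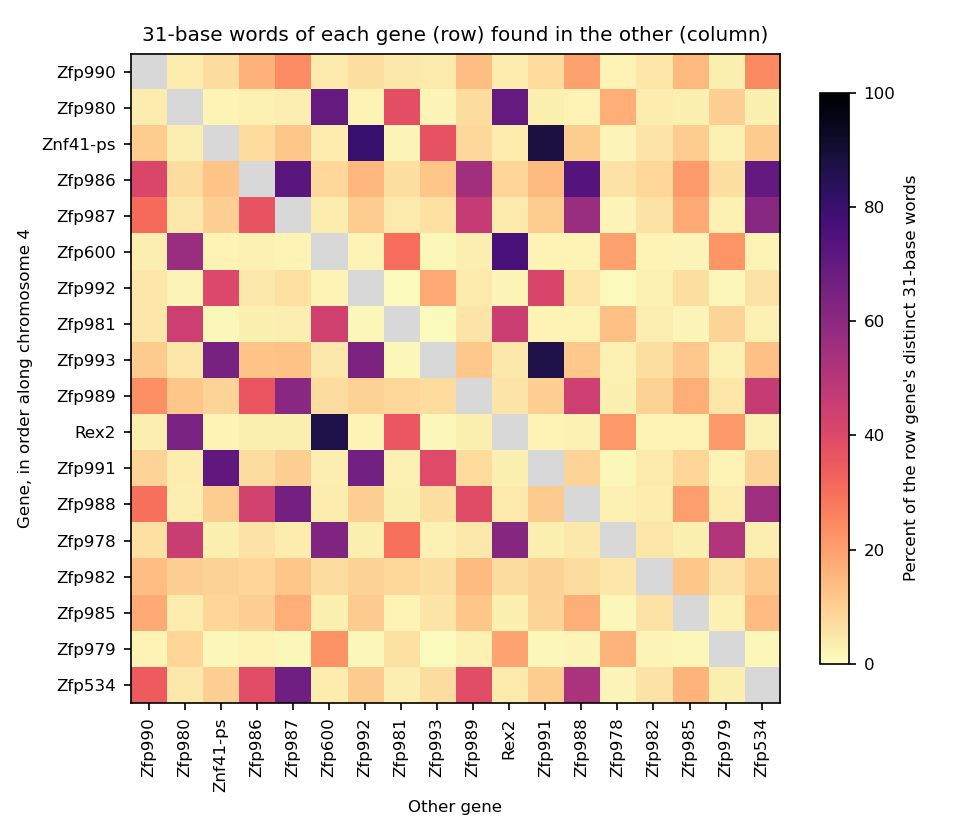
Percent of the distinct 31-base words of each gene (rows) that are also in the transcripts of another (columns), for the 17 zinc-finger members and Znf41-ps in chromosome order; the grey diagonal is left blank. Dark cells join Rex2 with Zfp600 and Zfp980, Zfp986 to Zfp989 with Zfp534, and Zfp991 to Zfp993 with Znf41-ps.

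Library depth was 35792709 to 66237183 counts. Levels are given in CPM, depth-scaled counts with TMM scaling. A floor of 3 counts was 0.0838 CPM in the shallowest library by depth alone, without TMM scaling. Intervals and floors cover counting error only. The summed level of 10 chondrocyte markers was 26940 to 31350 CPM in Kmt2d-/- clones and 600.6 to 1250 CPM in Kmt2d+/+ clones at day 7, and 1975 to 6171 against 53.3 to 414.8 CPM at day 0. It thus moved with genotype, and its part in the results below was not tested. Markers of pluripotent and germ cells, in which KRAB zinc-finger genes are highly active, summed to at most 4.22 CPM over 10 genes in any library, with Dppa3 and Utf1 at 0 in every library. Fewer expressing cells and less RNA per cell cannot be told apart in bulk RNA.

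In the Kmt2d-/- clones 11 zinc-finger members stood at 0.336% to 4.81% of their Kmt2d+/+ level at day 7 by the model's estimate, while Zfp991, Zfp992 and Zfp993 stood at 77.0%, 59.4% and 72.1%. The 17 members together summed to 27.0 and 28.4 CPM in Kmt2d-/- clones 1 and 2 at day 7, against 110.4, 150.5 and 114.5 CPM in Kmt2d+/+ clones 1, 2 and 3. At day 0 the sums were 40 and 38.9 CPM in Kmt2d-/- clones, against 125.5, 178.4 and 137.8 CPM in Kmt2d+/+ clones. The groups did not overlap at either day, and the Kmt2d-/- sums differed little from each other.

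A split of these sums, chosen after the data were seen, separates the 3 members whose groups lay closest from the other 14. The other 14 summed to 1.90 and 1.60 CPM in Kmt2d-/- clones and 73.9, 109.0 and 82.3 CPM in Kmt2d+/+ clones at day 7, a ratio of means of 50.5. At day 0 they summed to 6.74 and 3.30 CPM in Kmt2d-/- clones and 89.1, 133.1 and 91.0 CPM in Kmt2d+/+ clones, a ratio of 20.8. The 3 closest summed to 25.04 and 26.8 CPM in Kmt2d-/- clones and 36.6, 41.5 and 32.2 CPM in Kmt2d+/+ clones at day 7, a ratio of 1.42. At day 0 they summed to 33.3 and 35.6 CPM in Kmt2d-/- clones and 36.4, 45.3 and 46.8 CPM in Kmt2d+/+ clones. They made up 92.9% and 94.4% of the zinc-finger sum in Kmt2d-/- clones at day 7, against 27.6% to 33.1% in Kmt2d+/+ clones.

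**Figure D2:**
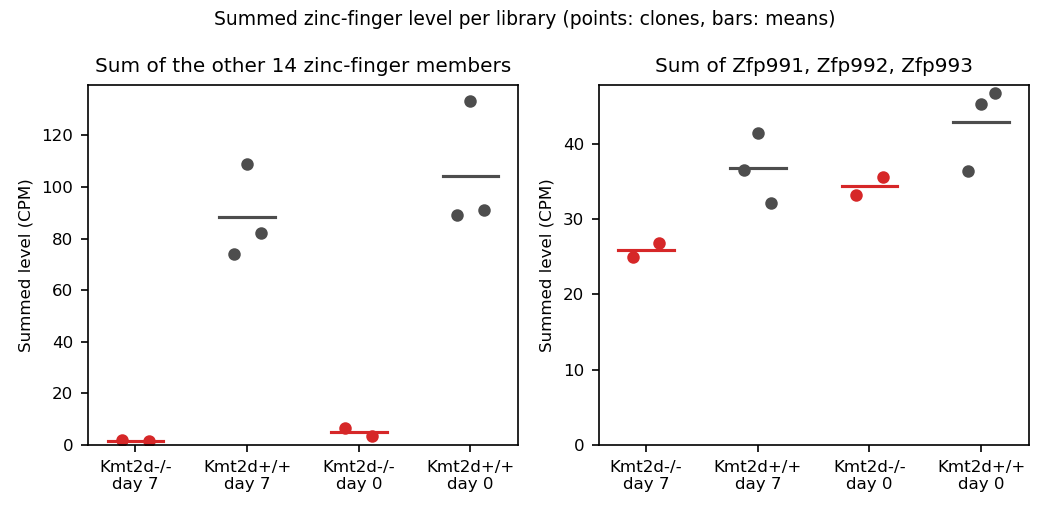
Summed CPM per library of the 14 other zinc-finger members (left) and of Zfp991, Zfp992 and Zfp993 (right), with axes from 0; points are clones and bars are group means. The 14 are at 6.74 CPM or less in every Kmt2d-/- library and at 73.9 CPM or more in every Kmt2d+/+ library, while the sums of the 3 lie between 25.04 and 46.8 CPM in all libraries.

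In edgeR's quasi-likelihood test over 15467 genes, 11 of the 17 zinc-finger members passed as lower in the Kmt2d-/- clones at day 7 (adjusted p under 0.05) and 0 as higher. Over all genes 0.97% passed as lower and 0.905% as higher. At day 0, 7 of the 17 passed as lower and 0 as higher, against 0.976% and 1.17% of all genes, and these 7 were also among the 11. The median log2 difference of the 17 was -4.94 at day 7 and -4.02 at day 0, and that of all genes tested was -0.0166 and 0.00594. Since the members were picked on this contrast, nothing is read from these shares. Both Kmt2d-/- clones were below all 3 Kmt2d+/+ clones for 14 of the 17 at day 7, as for 19.8% of all genes, and for 15 of the 17 at day 0, as for 18.3% of all genes. For 12 of the 17 all 4 Kmt2d-/- libraries were below all 6 Kmt2d+/+ libraries, as for 5.35% of all genes. When each clone was left out in turn, Rex2 and Zfp980 passed in all 5 fits at both days. The number passing at day 7 was then 4 when Kmt2d-/- clone 1 was dropped and 3 when clone 2 was. Dropping Kmt2d+/+ clone 1, 2 or 3 gave 5 of 15 tested, 8 of 17 and 3 of 15. Calls over all genes, in either direction, moved as well. With a Kmt2d+/+ clone dropped they were 32, 272 and 10 at day 7, against 290 with every clone. At day 0 they were 16, 912 and 10, against 332. Zfp978 and Zfp988 passed in 3 of these 5 fits at day 7, Zfp981 and Zfp990 in 2, Zfp600, Zfp982 and Zfp534 in 1, and Zfp979 and Zfp989 in 0. The day 0 numbers were 5 and 3 for the Kmt2d-/- clones dropped in turn and 3, 9 and 3 for the Kmt2d+/+ clones.

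**Figure D3:**
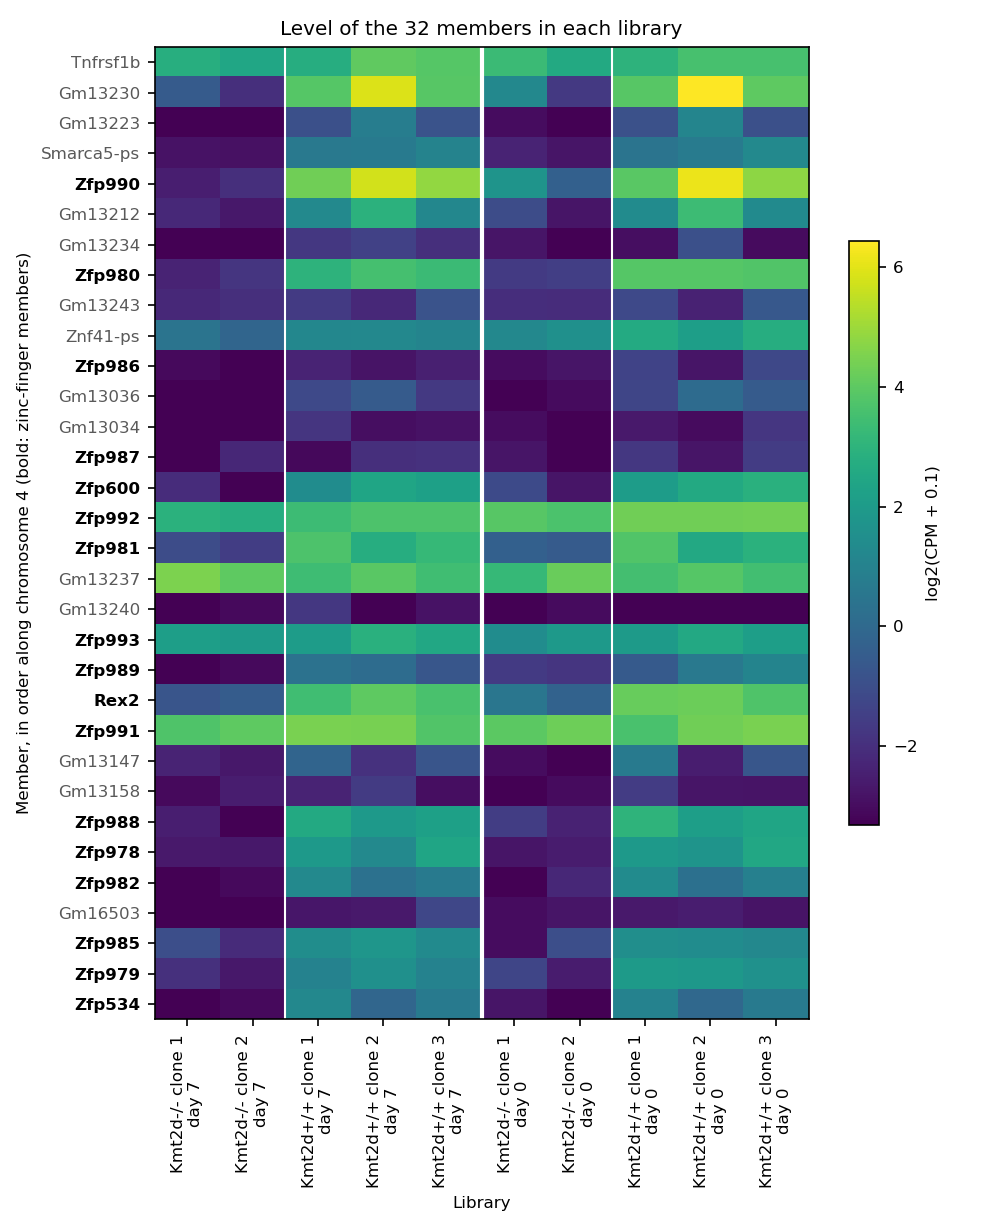
Level of each of the 32 members (rows, in chromosome order, zinc-finger members in bold) in each library (columns), as log2(CPM + 0.1); thick and thin white lines separate days and genotypes. Most rows are dark in the 4 Kmt2d-/- columns. Those of Zfp991, Zfp992, Zfp993, Gm13237 and Tnfrsf1b are not, and that of Znf41-ps is intermediate. Some rows, such as those of Zfp986 and Zfp987, are low in the Kmt2d+/+ columns too.

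Rex2 (147021850 to 147060794, plus strand) is one of the 5 genes of the first sequence group. Its level at day 7 was 0.50 and 0.623 CPM in Kmt2d-/- clones 1 and 2, against 10.7, 15.9 and 12.1 CPM in Kmt2d+/+ clones 1, 2 and 3. At day 0 Rex2 stood at 1.30 and 0.734 CPM in Kmt2d-/- clones, against 17.7, 18.8 and 13.2 CPM in Kmt2d+/+ clones. The groups were far apart at both days, with a log2 difference of -4.52 (SE 0.39, edgeR adjusted p = 0.00426) at day 7 and -4.02 (SE 0.38, edgeR adjusted p = 0.00483) at day 0. Zfp600 (146156824 to 146198755, plus strand), its closest copy, stood at 0.135 and 0 CPM in Kmt2d-/- clones, against 2.58, 5.23 and 4.53 CPM in Kmt2d+/+ clones at day 7. At day 0 Zfp600 was at 0.362 and 0.0459 CPM in Kmt2d-/- clones, against 4.10, 5.99 and 7.14 CPM in Kmt2d+/+ clones. It passed at day 7 (log2 difference -5.90, SE 1.19, edgeR adjusted p = 0.0473) but not at day 0 (-4.81, SE 1.10, edgeR adjusted p = 0.0577). Without Kmt2d-/- clone 1 the only Kmt2d-/- library at day 7 held 0 counts of Zfp600 and its fitted value, -10.77, is no bound, and without clone 2 the value was -4.91 and did not pass. At day 0 the value of Zfp600 was -6.90 without Kmt2d-/- clone 1, where it passed (edgeR adjusted p = 0.0392), and -3.97 without clone 2, where it did not.

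Zfp980 (145670685 to 145704441, plus strand) had the smallest adjusted p of the cluster. It stood at 0.0962 and 0.183 CPM in Kmt2d-/- clones, against 7.83, 11.7 and 9.84 CPM in Kmt2d+/+ clones at day 7 (log2 difference -6.10, SE 0.40, edgeR adjusted p = 7.96e-04). At day 0 Zfp980 stood at 0.217 and 0.252 CPM in Kmt2d-/- clones, against 14.5, 14.5 and 13.7 CPM in Kmt2d+/+ clones (-5.91, SE 0.40, edgeR adjusted p = 8.99e-04). The Kmt2d+/+ clones were within 1.06-fold of each other at day 0, the narrowest spread but 1 of the 12 members given per library. Zfp981 (146502027 to 146539395, plus strand) stood at 0.385 and 0.238 CPM in Kmt2d-/- clones, against 13.0, 6.69 and 9.16 CPM in Kmt2d+/+ clones at day 7. At day 0 Zfp981 stood at 0.70 and 0.596 CPM in Kmt2d-/- clones, against 13.6, 5.78 and 7.38 CPM in Kmt2d+/+ clones. Its log2 differences were -4.94 (SE 0.56, edgeR adjusted p = 0.00863) and -3.78 (SE 0.52, edgeR adjusted p = 0.0194), and Kmt2d+/+ clone 1 was the highest library at both days. Zfp978 (147361303 to 147391004, plus strand) stood at 0.0577 and 0.055 CPM in Kmt2d-/- clones, against 3.72, 2.30 and 5.22 CPM in Kmt2d+/+ clones at day 7. At day 0 Zfp978 stood at 0.0483 and 0.0688 CPM in Kmt2d-/- clones, against 3.81, 3.25 and 5.67 CPM in Kmt2d+/+ clones. Its Kmt2d-/- libraries held only 3 and 3 counts at day 7 and 2 and 3 counts at day 0. The log2 differences were -6.0 (SE 0.59, edgeR adjusted p = 0.0067) and -6.12 (SE 0.60, edgeR adjusted p = 0.00545).

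Zfp990 (145510759 to 145539188, plus strand) is the first zinc-finger member by position. It stood at 0.0769 and 0.147 CPM in Kmt2d-/- clones, against 19.6, 54.2 and 28.7 CPM in Kmt2d+/+ clones at day 7 (log2 difference -8.22, SE 1.17, edgeR adjusted p = 0.0206). At day 0 Zfp990 stood at 3.19 and 0.688 CPM in Kmt2d-/- clones, against 15.4, 70.8 and 27.6 CPM in Kmt2d+/+ clones (-4.29, SE 0.91, edgeR adjusted p = 0.0509, not passing). That day 0 value was -5.78 without Kmt2d-/- clone 1, -3.57 without Kmt2d-/- clone 2 and -3.48 without Kmt2d+/+ clone 2, and of these only the last passed (edgeR adjusted p = 0.0418). The Kmt2d+/+ clones differed 4.60-fold among themselves at day 0, with clone 2 the highest at both days. Its neighbour Gm13230, a transcribed pseudogene singled out after its values were seen, had its top level in the same clone. Gm13230 stood at 0.596 and 0.147 CPM in Kmt2d-/- clones, against 14.5, 60.8 and 15 CPM in Kmt2d+/+ clones at day 7, and did not pass (log2 difference -6.34, SE 1.51, edgeR adjusted p = 0.0649).

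Zfp988 (147305674 to 147333734, plus strand), of the group around Zfp987, stood at 0.0769 and 0 CPM in Kmt2d-/- clones, against 6.04, 3.69 and 4.53 CPM in Kmt2d+/+ clones at day 7. At day 0 Zfp988 stood at 0.242 and 0.0917 CPM in Kmt2d-/- clones, against 7.93, 4.29 and 5.27 CPM in Kmt2d+/+ clones. The groups did not overlap, with log2 differences of -6.88 (SE 0.97, edgeR adjusted p = 0.0206) and -5.11 (SE 0.86, edgeR adjusted p = 0.0274). At day 7 the value was -10.98 without Kmt2d-/- clone 1, which leaves a library with 0 counts and so gives no bound, and -5.91 without clone 2. At day 0 it was -5.96 without clone 1. Zfp979 (147611937 to 147642513, minus strand) stood at 0.154 and 0.055 CPM in Kmt2d-/- clones, against 1.89, 2.86 and 1.88 CPM in Kmt2d+/+ clones at day 7. At day 0 Zfp979 stood at 0.314 and 0.0688 CPM in Kmt2d-/- clones, against 3.84, 3.55 and 2.93 CPM in Kmt2d+/+ clones. It passed at both days (log2 difference -4.38, SE 0.73, edgeR adjusted p = 0.0316, and -4.16, SE 0.71, edgeR adjusted p = 0.0287). Without Kmt2d-/- clone 1 these were -5.28 and -5.60, and without clone 2 the day 0 value was -3.44. Only the day 0 value without clone 1 still passed among these 3. Zfp985 (147553277 to 147585198, plus strand) stood at 0.404 and 0.128 CPM in Kmt2d-/- clones, against 2.63, 3.35 and 2.43 CPM in Kmt2d+/+ clones at day 7. At day 0 Zfp985 stood at 0.0242 and 0.413 CPM in Kmt2d-/- clones, against 2.75, 2.6 and 2.28 CPM in Kmt2d+/+ clones. Its groups did not overlap, but it passed at neither day (log2 difference -3.39, SE 0.89, edgeR adjusted p = 0.0866, and -3.52, SE 0.91, edgeR adjusted p = 0.0764). DESeq2 and limma-voom called it lower at both days. Of all genes, DESeq2 called 10.3% at day 7 and 10.6% at day 0 in either direction. With the clone as a random block in limma-voom, Zfp985 passed at neither day. At day 7 its value was -4.43 without Kmt2d-/- clone 1 and -2.79 without clone 2, and neither passed. At day 0 it was -2.62 without clone 1, not passing, and -6.58 without clone 2, where 1 count was left in the Kmt2d-/- library and it passed (edgeR adjusted p = 0.031).

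The other 5 zinc-finger members averaged under 2 CPM in every group, with no library above 2.49 CPM. Counts of Zfp982 (147492417 to 147513486) at day 7 were 1 in the Kmt2d-/- libraries together and 331 in the Kmt2d+/+ libraries together, and after scaling for depth Kmt2d+/+ over Kmt2d-/- was 192.9 (95% interval, exact binomial, 34.4 to 7640). Zfp534 (147673502 to 147702553, minus strand) held 1 count against 305, and the scaled ratio was 177.7 (95% interval 31.7 to 7042). Zfp989 (146971976 to 146990755) held 1 count against 177, and its scaled ratio was 103.1 (95% interval 18.3 to 4096). Their log2 differences at day 7 were -7.15, -7.03 and -6.26. Without Kmt2d-/- clone 1 these were -6.33, -6.22 and -5.44, and without clone 2, which held the 1 count of each, they were -9.45, -9.34 and -8.56, which are no bounds. These 3 passed at day 7 (edgeR adjusted p = 0.0346, 0.0314 and 0.0304), and Zfp534 also at day 0 (edgeR adjusted p = 0.0356), where its log2 difference of -5.78 was -9.25 (no bound, with 0 counts left) without Kmt2d-/- clone 1 and -4.81 without clone 2. With the clone as a random block in limma-voom, Zfp989 did not pass at day 7 and Zfp534 did not pass at day 0, though both did in limma-voom without the block. Zfp600 and Zfp982 passed at day 0 in limma-voom with and without the block. Zfp986 and Zfp987 stayed at or under 0.337 CPM in every library and passed at neither day.

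Zfp991 (147132038 to 147180579, plus strand) was the member whose genotype groups lay closest. It had 13.2 and 16.2 CPM in Kmt2d-/- clones 1 and 2, against 22.3, 21.4 and 13.6 CPM in Kmt2d+/+ clones 1, 2 and 3 at day 7. At day 0 Zfp991 stood at 15.7 and 19.1 CPM in Kmt2d-/- clones, against 12.4, 19.8 and 21.8 CPM in Kmt2d+/+ clones. The groups overlapped at both days, with a log2 difference of -0.38 (SE 0.31, edgeR adjusted p = 0.549) and -0.05 (SE 0.30, edgeR adjusted p = 0.947). Zfp993 (146610961 to 146658160, plus strand) stood at 4.35 and 3.87 CPM in Kmt2d-/- clones, against 4.14, 7.22 and 5.71 CPM in Kmt2d+/+ clones at day 7. At day 0 Zfp993 stood at 2.59 and 3.74 CPM in Kmt2d-/- clones, against 3.92, 5.78 and 4.34 CPM in Kmt2d+/+ clones. It passed at neither day (-0.47, SE 0.35, edgeR adjusted p = 0.502, and -0.57, SE 0.35, edgeR adjusted p = 0.402). Zfp992 (146449023 to 146470292, plus strand) stood at 7.50 and 6.73 CPM in Kmt2d-/- clones, against 10.2, 12.9 and 12.8 CPM in Kmt2d+/+ clones at day 7. At day 0 Zfp992 stood at 14.95 and 12.75 CPM in Kmt2d-/- clones, against 20.1, 19.8 and 20.6 CPM in Kmt2d+/+ clones. Its groups did not overlap, but the difference was small and did not pass in edgeR (-0.75, SE 0.20, edgeR adjusted p = 0.0901, and -0.54, SE 0.20, edgeR adjusted p = 0.175), while DESeq2 called it lower at both days. The fourth gene of their sequence group, Znf41-ps, stood at 1.23 and 0.807 CPM in Kmt2d-/- clones, against 2.20, 2.23 and 2.00 CPM in Kmt2d+/+ clones at day 7. At day 0 Znf41-ps stood at 2.27 and 2.89 CPM in Kmt2d-/- clones, against 6.21, 4.34 and 6.66 CPM in Kmt2d+/+ clones. Its groups did not overlap at either day, at 47.6% and 45.0% of the Kmt2d+/+ level, but it did not pass (-1.07, SE 0.35, edgeR adjusted p = 0.138, and -1.15, SE 0.35, edgeR adjusted p = 0.11). Zfp991, Zfp992 and Zfp993 each share more words with each other and with Znf41-ps than with any other member, and they are not next to each other on the chromosome: Zfp981 lies between Zfp992 and Zfp993, and Zfp989 and Rex2 between Zfp993 and Zfp991.

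Of the 15 neighbours 12 could be tested. At each day 11 of the 12 had a negative log2 difference, as had 51.4% of all genes at day 7 and 49.5% at day 0. The median log2 difference of the 12 was -3.98 at day 7 and -3.71 at day 0, again a description. The protein-coding Gm13212, named after its values were seen, was at -5.55 (SE 1.24, edgeR adjusted p = 0.0589) and -4.54 (SE 1.16, edgeR adjusted p = 0.0743). As lower 2 neighbours passed at day 7 and 1 at day 0, against 0.97% and 0.976% of all genes. Neither kept its call in every fit without 1 clone. Smarca5-ps (145464204 to 145467420), a processed pseudogene of a chromatin remodeller gene, stood at 0.0385 and 0.0367 CPM in Kmt2d-/- clones, against 1.43, 1.46 and 1.95 CPM in Kmt2d+/+ clones at day 7 (log2 difference -5.34, SE 0.59, edgeR adjusted p = 0.00863). At day 0 its log2 difference was -4.55 (SE 0.56, edgeR adjusted p = 0.0121), and without Kmt2d-/- clone 1 it was -5.16 and did not pass. The processed pseudogene Gm13036 (146058776 to 146059523) held 0 counts in the Kmt2d-/- libraries at day 7, against 76 in those of Kmt2d+/+ clones, at least 7.38-fold lower against a floor of 3 counts per library (edgeR adjusted p = 0.0458). Gm13237 and Tnfrsf1b, singled out after their values were seen, had counts in all libraries. The pseudogene Gm13237 stood at 22.5 and 16.0 CPM in Kmt2d-/- clones, against 10.4, 15.3 and 10.9 CPM in Kmt2d+/+ clones at day 7, and did not pass (0.66, SE 0.33, edgeR adjusted p = 0.305). Its transcript shares 99.0% of its 31-base words with genes outside the member list. Tnfrsf1b, the gene of a receptor for tumour necrosis factor and the first member by position, stood at 6.89 and 5.34 CPM in Kmt2d-/- clones, against 6.58, 16.3 and 14.6 CPM in Kmt2d+/+ clones, and did not pass (-1.03, SE 0.43, edgeR adjusted p = 0.23). The rule's edges ran through low values: Gm13034 and Gm13240, with at most 11.4 and 12.3 counts in a library, were inside, and Gm13146 and Gm13135, with 9.90 and 9.14, were outside. By position, Tnfrsf1b was the first gene inside and Vps13d the last outside, and Zfp534 was the last inside and Gm13136 the first outside.

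The medians of the genes on either side of the window were near 0, but the low values did not end at its upper edge. In the 2 Mb before it 9 genes were tested, 0 passed in edgeR at either day (1 at an unadjusted p under 0.05 at each day), and the median log2 difference was 0.07 at day 7 and -0.12 at day 0. In the 2 Mb after it 42 genes were tested, with medians of -0.09 and -0.04. The first 3 of them past Zfp534 had negative log2 differences at day 7, of -1.35 for Gm13136, -4.88 for Gm13148 and -2.28 for Zfp984. At day 0 Gm13136 was at -2.02 and Gm13148 at -3.52. Gm13136 and Gm13148 averaged under 0.35 CPM in both genotypes at day 7 and did not pass at either day. Genes past the edge also share transcript sequence with members. Of the 31-base words of Gm13212, 58.1% were in Zfp984, and of those of Gm13158, 70.7% were in Gm13148. Reads may thus be divided across the edge, and these values are not independent of those of the members. The next 2, Rps19-ps3 and Zfp933, were at -0.23 and -0.06 at day 7. In these 2 Mb 2 genes passed as lower at day 7. They were Casz1, a zinc-finger gene of another family (log2 difference -2.14, SE 0.41, edgeR adjusted p = 0.041), and Zfp984 (147753974 to 147809788), the nearest tested Zfp gene past the edge, named, like the other genes near the edge, after their values were seen. Zfp984 averaged 0.728 ± 0.277 CPM in Kmt2d-/- clones (SD, n = 2) and 3.54 ± 0.884 CPM in Kmt2d+/+ clones (SD, n = 3), a log2 difference of -2.28 (SE 0.47) with an edgeR adjusted p that rounds to 0.05. Neither passed when any 1 clone was left out. Among 361 Zfp genes elsewhere in the genome, 3 passed as lower and 0 as higher at day 7, with a median of -0.06, and 4 and 3 at day 0, with a median of -0.03. On the rest of chromosome 4, 8 of 994 genes passed as lower and 4 as higher at day 7. The cluster was chosen on these differences, so the gap between it and the other Zfp genes is a description.

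**Figure D4:**
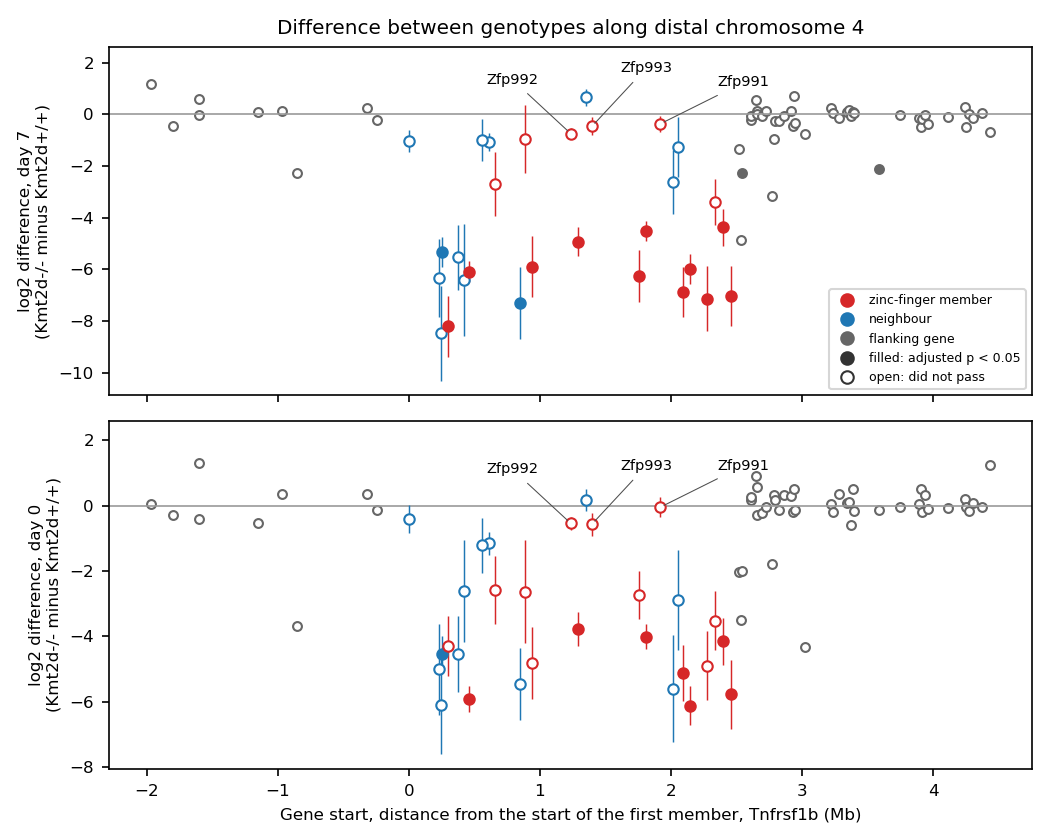
Log2 difference of Kmt2d-/- minus Kmt2d+/+ clones at day 7 (top) and day 0 (bottom) against the distance of each gene's start from that of Tnfrsf1b in Mb; bars on members are SE, and filled points have an edgeR adjusted p under 0.05. Zfp992, Zfp993 and Zfp991 lie near 0, with other zinc-finger members between them at -4.52 to -6.26 at day 7, and most flanking genes on both sides lie near 0.

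The genes of the proteins with which KRAB zinc-finger proteins act were described as a list. Of 34 listed genes of that repression machinery, 1 passed as higher and 1 as lower at day 7, against 0.905% and 0.97% of all genes. At day 0 the number passing in edgeR was 0, against 1.17% as higher and 0.976% as lower. An unadjusted p under 0.05 was found for 7 at day 7 and 6 at day 0, and for 3079 and 3130 of all 15467 genes. The median log2 difference of the list was -0.08 at both days. Trim28, the co-repressor that binds the KRAB domain, averaged 200.9 ± 6.42 CPM in Kmt2d-/- clones (SD, n = 2) and 112.7 ± 3.43 CPM in Kmt2d+/+ clones (SD, n = 3) at day 7 (log2 difference 0.83, SE 0.15, edgeR adjusted p = 0.0363). It lies in the first 20 Mb of chromosome 7, where the median of the 159 genes tested was also above 0. That median was 0.62 at day 7 and 0.50 at day 0 on the log2 scale. Whether the region has a part in the level of Trim28 was not tested. Resf1 is needed for retroelement silencing in mouse embryonic stem cells. At day 7 it averaged 42.6 ± 10.4 CPM in Kmt2d-/- clones and 102.3 ± 25.7 CPM in Kmt2d+/+ clones (-1.27, SE 0.26, edgeR adjusted p = 0.0492). Trim28 and Resf1 passed in 0 of the 5 fits without 1 clone, with log2 differences of 0.80 to 0.87 and -1.54 to -1.04. Setdb1, a methyltransferase of histone H3 lysine 9, did not pass at day 7 (-0.21, SE 0.27, edgeR adjusted p = 0.738). At day 0 Resf1 went the other way, at 114.5 ± 29.2 CPM in Kmt2d-/- clones and 81.3 ± 4.03 CPM in Kmt2d+/+ clones. It did not pass there (0.49, SE 0.25, edgeR adjusted p = 0.30). Trim28 was higher in the Kmt2d-/- clones at day 0 too, but did not pass (0.62, SE 0.15, edgeR adjusted p = 0.0645).

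The change over 7 days of differentiation was not used to pick the members and was tested. Zfp992 fell in the Kmt2d+/+ clones, the only one of the 17 zinc-finger members to pass there, and 0 passed in edgeR in the Kmt2d-/- clones, where 1.27% of all genes changed in either direction. In the Kmt2d+/+ clones Zfp992 stood at 10.2, 12.9 and 12.8 CPM at day 7, against 20.1, 19.8 and 20.6 CPM at day 0 in clones 1, 2 and 3. It was lower at day 7 in 3 of 3 clones (log2 difference -0.75, SE 0.18, edgeR adjusted p = 0.0473), and over all genes 2.04% passed as lower. In the Kmt2d-/- clones it stood at 7.50 and 6.73 CPM at day 7, against 14.95 and 12.75 CPM at day 0, and did not pass (-0.96, SE 0.22, edgeR adjusted p = 0.0762). The difference between these changes was -0.21 (SE 0.28, edgeR adjusted p = 1), so Zfp992 is not shown to change differently in the genotypes. With the clone as a block Zfp992 passed in both genotypes (edgeR adjusted p = 0.0248 in Kmt2d+/+ and 0.041 in Kmt2d-/-). Without any 1 of the 5 clones, and in 4 other alternatives, it did not pass in the Kmt2d+/+ clones. The pseudogene Znf41-ps (145825237 to 145829942), of the same sequence group, also fell in the Kmt2d+/+ clones. It stood there at 2.20, 2.23 and 2.00 CPM at day 7, against 6.21, 4.34 and 6.66 CPM at day 0 (log2 difference -1.42, SE 0.30, edgeR adjusted p = 0.0381), and passed in 0 of the 5 fits without 1 clone.

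In the Kmt2d-/- clones 4 of the 17 members had an unadjusted p under 0.05 for the change over time, as had 2284 of all 15467 genes. The day differences of Zfp989 and Zfp990 had the smallest unadjusted p after Zfp992. Zfp989 stood at 0 and 0.0183 CPM at day 7, against 0.217 and 0.183 CPM at day 0, and did not pass (log2 difference -4.11, SE 1.06, edgeR adjusted p = 0.108). Zfp990 stood at 0.0769 and 0.147 CPM at day 7, against 3.19 and 0.688 CPM at day 0, in Kmt2d-/- clones 1 and 2. Zfp990 did not pass (log2 difference -4.08, SE 1.08, edgeR adjusted p = 0.113), but did with the clone as a block (-3.83, SE 0.65, edgeR adjusted p = 0.0327), where Zfp990 and Zfp992 passed. The same pair passed in DESeq2 and 0 members in limma-voom, against 6.4% and 1.16% of all genes in either direction. In Kmt2d+/+ clones Zfp990 stood at 19.6, 54.2 and 28.7 CPM at day 7, against 15.4, 70.8 and 27.6 CPM at day 0 (log2 difference -0.15, edgeR adjusted p = 0.912). The difference of the day effects did not pass for any member in edgeR, DESeq2 or limma-voom, with 2 of the 17 at an unadjusted p under 0.05 in edgeR, Zfp990 and Zfp989. Over all genes 0 passed that test in edgeR (0.0%), and 568 had an unadjusted p under 0.05.

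**Figure D5:**
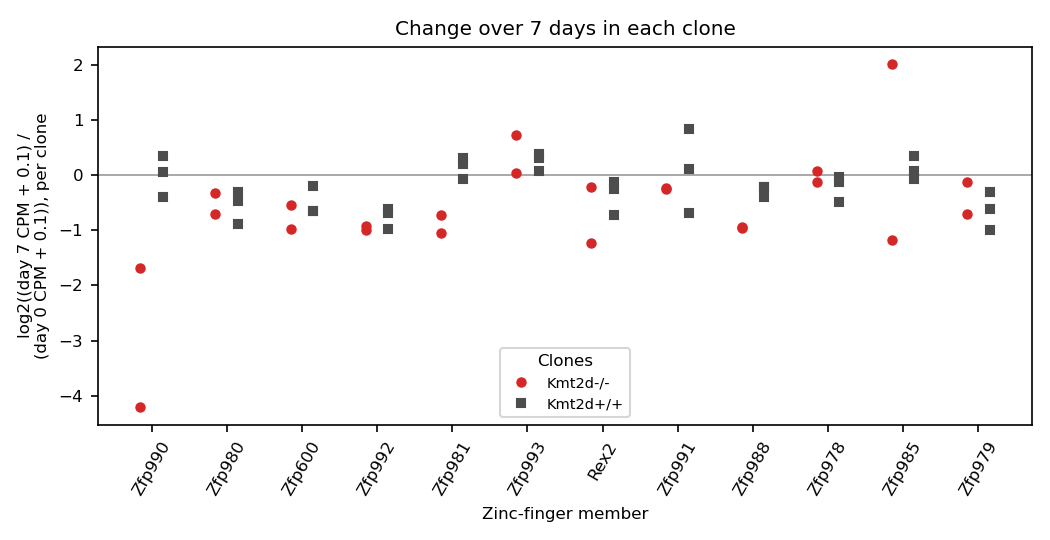
Change from day 0 to day 7 in each clone, as log2 of (day 7 CPM + 0.1) over (day 0 CPM + 0.1), for the 12 zinc-finger members with at least 2 CPM in a group; circles are Kmt2d-/- clones and squares are Kmt2d+/+ clones. Zfp992 is below 0 in all 5 clones, between -0.61 and -0.99, and Zfp990 is at -4.22 and -1.68 in the Kmt2d-/- clones.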

How the data were processed

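Polyadenylated RNA of 5 ATDC5 clones at day 0 and day 7 was sequenced, each library on 2 flow cells. The authors deposited a table of estimated counts per gene, without normalization, for 27911 Ensembl identifiers. The tools were Salmon, edgeR, limma and DESeq2 on GRCm38, per the submitters' processing notes. No version, annotation or strand setting is given in the sources used here. Estimated counts split the reads of near-identical copies, and without a stated strand setting overlapping genes cannot be told apart.

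The 2 runs of a library were summed and rounded to whole counts. edgeR 4.0.16 (R 4.3.3) fitted 1 mean per group to all 10 libraries, with filterByExpr (15467 genes), TMM, the quasi-likelihood F test (6 residual degrees of freedom) and Benjamini-Hochberg adjustment. It was tested on simulated data, with changes only in the Kmt2d-/- day 7 group and without the correlation between libraries of a clone given below. Standard errors come from the log2 difference and its F statistic. Alternatives were DESeq2 1.42.0, limma-voom (limma 3.58.1), other scalings, filters, single runs, fewer groups, a clone block and each clone left out. Day 0 and day 7 libraries of a clone come from the same line, and their deviations from the group means correlated at 0.363 to 0.571.

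The members and the lists (repression machinery, flanks, Zfp genes elsewhere, cell markers) were chosen with earlier results of these data known. Zinc-finger members that averaged 2 CPM or more in any group are given in every library. Passing neighbours, passing machinery genes, Trim28 and Setdb1 are named. The zinc-finger class was taken from symbols alone, since protein sequences were not used here. Thus 4 genes with 3 or more fingers in their reading frames were kept as neighbours. Fingers and shared 31-base words were read from GENCODE M21 transcripts. Marker sums of 5 immune, 4 endothelial and 4 epithelial genes reached at most 1.18, 8.78 and 1.49 CPM. Those of 4 neural genes were 16.7 to 30.6 CPM in Kmt2d-/- clones and 6.84 to 21.3 CPM in Kmt2d+/+ clones at day 7, and 21.7 to 83.9 against 18.5 to 48.2 CPM at day 0. Those of 4 hypertrophic chondrocyte genes were 429.4 to 470.4 against 106.4 to 1230 CPM at day 7, and 62.1 to 158.1 against 15.2 to 145.6 CPM at day 0. Their part in the results was not tested.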

Additional observations from a re-analysis of the deposited data

How the results depend on the processing

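With 2 and 3 clones a group, counts of passing members depend on the spread estimate. Zinc-finger members passing at day 7 were 11, 7 with run 1 alone, 5 with only the groups compared, and 3 to 8 without 1 clone. At day 0 they were 7, 13 in DESeq2, 1 with only the groups compared, and 3 to 9 without 1 clone. For day 7 against day 0 in Kmt2d+/+ clones the count of 1 was 0 with upper-quartile scaling, no filter, run 2 alone or only the groups compared, and in every fit without 1 clone. In Kmt2d-/- clones the count of 0 was 2 in DESeq2, 1 with run 1 alone and 2 with the clone as replicate block. Over all genes these settings called 6.4%, 1.38% and 5.57%. With the clone as a random block in limma-voom, 10 members passed at day 7 and 8 at day 0. The block left the Kmt2d+/+ day count at 1 and the interaction count at 0. The cause of these changes was not tested. The summed log2 difference, -2.18 at day 7 and -1.90 at day 0, was -5.66 and -4.38 without the 3 closest members, and -1.72 and -1.54 without Zfp990, both chosen after the data were seen. The day 0 difference of Zfp991, -0.05, was 0.12 with run 2 alone, and -0.26 to 0.090 without 1 clone, positive without Kmt2d-/- clone 1 or Kmt2d+/+ clone 2 or 3. Of 431 values of single genes under alternatives, 338 kept direction and call, 69 lost the call, 20 gained it and 4 changed sign. Over all genes, 290 passed at day 7, against 1593 in DESeq2, 533 in limma-voom, 184 with run 2 alone, 55 with only the groups compared, and 10 to 272 without 1 clone. At day 0, 332 passed, against 1632 in DESeq2, 9 with only the groups compared, 193 with the random block and 10 to 912 without 1 clone. For rare copies depth limits precision: 3 counts are 0.0838 CPM in the shallowest library, without TMM scaling. Among values of at least 2 CPM, the runs of a library differed by a median of 0.24 (log2) for zinc-finger members, against 0.13 for all genes.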
